A study of Mus musculus with 17 samples.

Results

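The Ms4a4 and Ms4a6 group is a set of 6 neighbouring mouse genes, Ms4a4b, Ms4a4c, Ms4a6b, Ms4a6c, Ms4a6d and Ms4a7. They were taken from the 47643 gene rows of a count table by their Ensembl identifiers, and the annotation holds 13 other Ms4a genes. The 6 were chosen with their levels across the genotypes of these data already known. Their differences between genotypes are therefore given as descriptions, with standard errors and without p-values.

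Ms4a genes encode small proteins that pass through the membrane several times and sit mainly in blood cells. The best known are Ms4a1, which is the B cell antigen CD20, and Ms4a2, the beta chain of the high-affinity IgE receptor of mast cells and basophils. The Ms4a4 and Ms4a6 genes of the mouse are known from T cells, monocytes and macrophages, and Ms4a7 is mostly a gene of mature macrophages.

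The 17 libraries were made from polyA RNA of cKit+ Lymph- Ery- cells, a sorted bone marrow fraction that holds hematopoietic stem and progenitor cells, from mice of 6 genotypes. The genotypes combine a deleted enhancer of Spi1 (URE, its upstream regulatory element), the gene of the transcription factor PU.1, with loss of 1 or both copies of Tet2, an enzyme that oxidises methylated cytosine in DNA. The Normal disease state holds URE+/+;Tet2+/+ (WT, 3 libraries), UREΔ/+;Tet2+/+ (URE het, 3), URE+/+;Tet2+/- (Tet2 het, 3) and URE+/+;Tet2-/- (Tet2 KO, 3). The AML (acute myeloid leukemia) state holds UREΔ/+;Tet2+/- (URE het Tet2 het, 2) and UREΔ/+;Tet2-/- (URE het Tet2 KO, 3). The single mutants and the WT were described as age-matched controls, but no age was given, and AML was present in every compound library and in no other. Disease and compound genotype thus cannot be told apart. The labels name no individual mice, so p-values measure the spread between these libraries.

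Gene rows summed to 21102969 to 38254157 counts per library (median 32167827). Kit, the marker of the sort, was at 99.97 to 187 CPM (counts per 1000000 counts of the scaled library) in the Normal libraries and at 117 to 170 CPM in the AML libraries. Cd34 was at 59.4 to 145 CPM in the former and at 0.0650 to 73.6 CPM in the latter. Over the 19951 genes that passed the filter on low counts, the AML libraries correlated with the Normal mean at Pearson r = 0.900 to 0.963 and the Normal libraries at 0.969 to 0.985, each against the mean of the other Normal libraries. The AML libraries nearest to Normal were URE het Tet2 het replicate 2 (0.963) and, next, URE het Tet2 KO replicate 1 (0.956). Tet2 differed from WT by -0.53 ± 0.23 (log2, SE) in the Tet2 KO libraries and did not pass the test (edgeR adjusted p = 1.0). Tet2 was at 108 to 133 CPM in WT and at 112 to 176 CPM in URE het Tet2 KO, and it was higher in AML than in Normal by 0.55 ± 0.14 (edgeR adjusted p = 0.0261). The position of the deleted part was not given, so these levels do not check the labels.

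The 6 genes lie on chromosome 19 (GRCm38) within 283811 bases, chr19:11321039-11604849. Ms4a7 (ENSMUSG00000024672, chr19:11321039-11336146) and Ms4a6d (ENSMUSG00000024679, chr19:11586604-11604849) are on the minus strand. The plus strand carries, in order, Ms4a4c (ENSMUSG00000024675, chr19:11404770-11427246), Ms4a4b (ENSMUSG00000056290, chr19:11443553-11467055), Ms4a6c (ENSMUSG00000079419, chr19:11469366-11482192) and Ms4a6b (ENSMUSG00000024677, chr19:11516512-11531256). The genes are close relatives of one another. Coding sequences of Ms4a4b and Ms4a4c were identical at 91.7% of aligned bases, those of Ms4a6b and Ms4a6c at 85.8%, of Ms4a6b and Ms4a6d at 81.2% and of Ms4a6c and Ms4a6d at 77.4%. All other pairs fell between 57.0% and 63.9%.

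The likeness within each pair extends upstream of an annotated start of transcription, and the 250 bases before it are printed to show where. The sequences are RefSeq's on GRCm38.p6, plus strand, in lower case. The starts are those that came with these sequences, and the gene spans above are from GENCODE. The windows of Ms4a4c and Ms4a6b lie inside those spans, downstream of the first base of the gene. Capitals mark GAGGAA, the purine-rich core that PU.1 and other ETS factors can bind, in Ms4a4b and Ms4a4c. In Ms4a6b and Ms4a6c they mark the longest run of 48 bases that both share.
Ms4a4b, chr19:11443308-11443557: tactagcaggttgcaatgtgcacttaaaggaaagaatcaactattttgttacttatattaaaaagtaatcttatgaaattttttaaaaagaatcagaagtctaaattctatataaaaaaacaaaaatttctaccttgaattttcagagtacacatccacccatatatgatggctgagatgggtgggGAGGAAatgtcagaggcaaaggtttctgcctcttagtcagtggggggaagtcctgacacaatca
Ms4a4c, chr19:11407411-11407660: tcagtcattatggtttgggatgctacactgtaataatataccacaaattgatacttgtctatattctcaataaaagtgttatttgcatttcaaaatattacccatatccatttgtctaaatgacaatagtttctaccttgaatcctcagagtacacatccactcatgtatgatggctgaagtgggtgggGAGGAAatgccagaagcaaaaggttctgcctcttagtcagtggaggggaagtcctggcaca
Ms4a6b, chr19:11518309-11518558: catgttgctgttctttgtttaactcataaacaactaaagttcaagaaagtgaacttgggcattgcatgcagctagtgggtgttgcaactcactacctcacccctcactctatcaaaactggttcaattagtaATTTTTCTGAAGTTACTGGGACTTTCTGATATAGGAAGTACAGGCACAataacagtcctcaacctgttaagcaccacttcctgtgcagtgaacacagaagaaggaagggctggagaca
Ms4a6c, chr19:11469118-11469367: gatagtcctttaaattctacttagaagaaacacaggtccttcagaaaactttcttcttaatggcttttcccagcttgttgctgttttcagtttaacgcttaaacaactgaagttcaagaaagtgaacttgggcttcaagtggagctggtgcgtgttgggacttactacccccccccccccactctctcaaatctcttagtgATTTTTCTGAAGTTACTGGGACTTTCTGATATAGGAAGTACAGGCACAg
The windows of Ms4a4b and Ms4a4c were identical at 75.3% of 239 aligned bases, those of Ms4a6b and Ms4a6c at 85.1% of 175, and the 4 pairs across the subfamilies at 50.2% to 53.7%. GAGGAA lay 64 to 59 bases before the start in Ms4a4b and 61 to 56 bases before it in Ms4a4c, on the plus strand in both. Among the 6 windows of 300 bases held for 5 members (250 before and 50 after a start; Ms4a7 has 2 and Ms4a6d was not matched), 3 held GAGGAA on either strand. It was held by 3 of 13 windows of other Ms4a genes and by 28.3% of all 32851 windows in the table. The composite element of ETS and interferon regulatory factors, the interferon response element and the C/EBP motif TTGCNNAA, searched on both strands, were in none of the 6 member windows, against 2.7%, 3.4% and 10.8% of all windows.

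Reads from such relatives can be split between them, and how the counting treated reads that match several genes or either strand is not given in the sources used here. Of the 100-base windows along annotated exons, 0.47% in Ms4a4b and 1.66% in Ms4a4c also occur in another gene, and none in Ms4a6b, Ms4a6d or Ms4a7. For Ms4a6c the share is 45.8%, held in common with BE692007, a noncoding gene on the opposite strand over the same locus, and Prdm11, and at this length not with any other Ms4a gene. For 50-base windows the shares are 2.40% in Ms4a4b, 8.19% in Ms4a4c, 3.57% in Ms4a6b, 51.4% in Ms4a6c (5.85% shared with other Ms4a genes), 2.54% in Ms4a6d and 0.31% in Ms4a7. The counts of Ms4a6c are uncertain for that reason, and the sources used here give no read length. BE692007 itself was at 9.07 ± 4.02 CPM (SD, n = 12) in the Normal and 7.02 ± 5.26 CPM (n = 5) in the AML libraries.

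In the Normal progenitors Ms4a6c was the most abundant member and Ms4a7 was close to absent. Per kilobase of exon, Ms4a6c stood at 12.1 ± 2.80 CPM per kb (SD, n = 12), and its lowest Normal library (8.85) was above the highest of any other member. Ms4a6b (3.02 ± 0.87) and Ms4a4c (2.65 ± 1.00) followed and overlapped from library to library. Ms4a6d was at 1.36 ± 1.19 and overlapped with both Ms4a4c and Ms4a4b (0.681 ± 0.218). The place of Ms4a4b rests on its annotated exons of 8780 bases, against 1751 in Ms4a4c and 1735 in Ms4a6d. Without the division by length, Ms4a4b was at 6.0 ± 1.9 CPM, Ms4a4c at 4.6 ± 1.7 and Ms4a6d at 2.4 ± 2.1. The order of these genes is therefore uncertain. Ms4a7 stood at 0.0281 ± 0.0321 CPM per kb, below Ms4a4b in every Normal library. In the AML libraries (n = 5) the order per kb was Ms4a6c at 6.60 ± 3.73, Ms4a6b at 0.832 ± 1.07, Ms4a6d at 0.782 ± 0.678, Ms4a4c at 0.355 ± 0.334, Ms4a4b at 0.190 ± 0.168 and Ms4a7 at 0.00802 ± 0.00861. Ms4a4c thus stood below Ms4a6d there, within the spread of both.

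Ms4a4c separated the AML from the Normal libraries without overlap. Ms4a4c encodes a protein known from lymphoid and myeloid cells and is listed in many interferon signatures. It ranged from 2.19 CPM through a median of 4.32 to 7.54 CPM in the 12 Normal libraries. The AML libraries held 1.55 and 0.813 CPM (URE het Tet2 het replicates 2 and 1) and 0.401, 0.254 and 0.0907 CPM (URE het Tet2 KO replicates 2, 1 and 3), the last from 3 counts. All 5 AML libraries were below all 12 Normal ones, and the URE het Tet2 KO libraries were below both URE het Tet2 het libraries. How many genes separate these 3 and 2 libraries was not counted, so nothing is read from that order. AML was lower than Normal by 8.12-fold (log2 -3.02 ± 0.36, SE).

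Ms4a4b, a T cell gene whose protein is known to limit T cell proliferation, showed the same direction with 1 exception. Its Normal libraries ran from 2.71 through a median of 5.61 to 10.2 CPM. The AML values were 0.976 and 3.74 CPM in URE het Tet2 het replicates 1 and 2 and 0.211, 0.774 and 2.66 CPM in URE het Tet2 KO replicates 1, 2 and 3. Replicate 2 of URE het Tet2 het lay within the Normal range, while the other 4 were below it, URE het Tet2 KO replicate 3 by a narrow margin. The log2 difference between AML and Normal was -1.79 ± 0.47, or 3.45-fold, and it became -2.43 on leaving out replicate 2 of URE het Tet2 het and -2.45 on leaving out URE het Tet2 KO replicate 3. Markers of T and NK cells, given further on, also had lower sums in some AML libraries, and their part in the Ms4a4b values was not tested. In RNA of a whole sorted fraction, fewer cells of a type and less RNA per cell cannot be told apart.

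Ms4a6b, a close relative of Ms4a6c that is also known from T cells, was at 7.74 to 21.1 CPM in the Normal libraries, with a median of 13.3. In the AML libraries it was at 1.01 and 12.2 CPM in URE het Tet2 het and at 2.79, 0.688 and 1.97 CPM in URE het Tet2 KO, in replicate order. Again 4 AML libraries were below the whole Normal range and URE het Tet2 het replicate 2 stood inside it. The log2 difference was -1.93 ± 0.45 (3.82-fold), which became -3.30 when URE het Tet2 het replicate 2 was left out.

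Ms4a6c, a gene of monocytes, overlapped between the states in part. It was at 18.1 to 38.1 CPM in the Normal libraries (median 23.9) and at 4.91 and 22.6 CPM in URE het Tet2 het and 6.85, 19.1 and 14.1 CPM in URE het Tet2 KO, in replicate order. Here 3 of 5 AML libraries were below all Normal ones and 2 were within their range. The log2 difference was -0.86 ± 0.31. Leaving out replicate 2 of URE het Tet2 het gave -1.61, leaving out its replicate 1 gave -0.51.

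Ms4a6d, known from macrophages, overlapped between the states. The Normal libraries ran from 0.611 through a median of 1.90 to 8.14 CPM and the AML libraries from 0.325 through 0.889 to 2.88 CPM. The log2 difference was -0.59 ± 0.54, and leaving out 1 library of URE het Tet2 het gave -1.62 (replicate 2 left out) or -0.20 (replicate 1 left out), and leaving out URE het Tet2 KO replicate 1 gave -1.15. Ms4a7, the macrophage gene, held 0 to 12 counts in every library and 0 in 4 of 17, and since 3 counts correspond to 0.0637 to 0.149 CPM here, no fold is read from it.

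**Figure D1:**
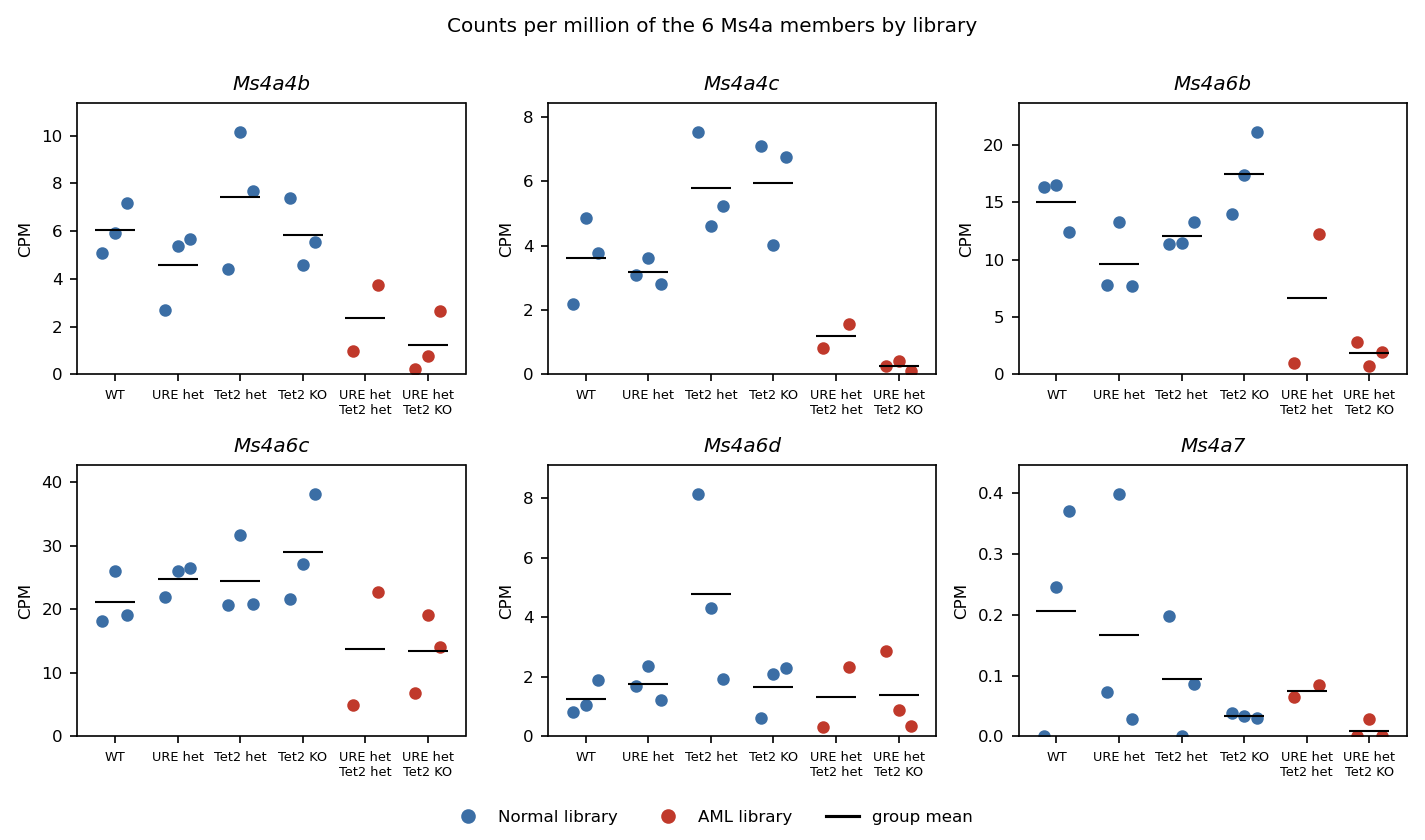
CPM of each of the 6 members (y axis, linear, one scale per gene) in the 17 libraries by genotype (x axis); points are libraries, blue for Normal and red for AML, and black lines are group means. Ms4a4c is at most 1.55 CPM in the 5 AML libraries and at least 2.19 CPM in the 12 Normal ones, while Ms4a6d and Ms4a7 overlap.

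In the test across all genes, 3 of the 6 members (Ms4a4b, Ms4a4c and Ms4a6b) were called lower in AML at a Benjamini-Hochberg adjusted p under 0.05. Over all 19951 genes 4.02% were called lower and 6.94% higher. The median of the 6 was -1.70 and that of all genes 0.05 (log2). It lies midway between Ms4a4b and Ms4a7, from which no fold is read, and over the other 5 the median is that of Ms4a4b, -1.79. Since the members were chosen on this contrast, nothing is read from the difference. All 6 passed the filter on low counts, Ms4a7 only through a few Normal libraries. Having all 5 AML libraries below all 12 Normal ones, as Ms4a4c had, was seen in 0.692% of genes, at least 4 of 5 in 5.58% and at least 3 of 5 in 13.7%. The call of Ms4a4b ended on leaving out URE het Tet2 het replicate 1 (log2 -1.46) or, separately, URE het Tet2 KO replicate 2 (-1.69), where 1.31% and 2.43% of all genes were called lower. Ms4a6c was called as well once URE het Tet2 het replicate 2 was left out, where 9.19% of all genes were called lower, and also by DESeq2 and with the range of title numbers as a term.

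With the URE deletion or the loss of Tet2 alone, Ms4a4c was above every AML library in every single-mutant library. Against WT, the URE het libraries differed by -0.40 ± 0.64 for Ms4a4b, -0.19 ± 0.43 for Ms4a4c, -0.65 ± 0.60 for Ms4a6b, 0.23 ± 0.45 for Ms4a6c and 0.49 ± 0.80 for Ms4a6d (log2 ± SE). Ms4a4c was at 2.19, 3.77 and 4.86 CPM in WT and at 2.80, 3.08 and 3.62 CPM in URE het, which is inside the WT range. With loss of Tet2 the Ms4a4c values were on average above WT and overlapped with it. Tet2 het libraries held 4.62, 5.24 and 7.54 CPM (log2 0.68 ± 0.43 against WT) and Tet2 KO libraries 4.03, 6.77 and 7.10 CPM (0.73 ± 0.43). Ms4a6d had its largest values in Tet2 het, at 1.92, 4.32 and 8.14 CPM against 0.802, 1.05 and 1.88 CPM in WT (1.94 ± 0.81). The lowest Tet2 het library was next to the highest WT one, and Tet2 KO was at 0.611 to 2.29 CPM. How many genes separate these 3 and 3 libraries was not counted, so nothing is read from the lack of overlap. In each of these 3 comparisons edgeR called 0 of 19951 genes (0%). Unadjusted p-values under 0.05 numbered 753 for URE het, 585 for Tet2 het and 512 for Tet2 KO, and DESeq2 called 7, 1 and 12 genes. These comparisons share the WT libraries.

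Adding the URE deletion to Tet2 KO went with the lowest Ms4a4c levels of the series. URE het Tet2 KO differed from Tet2 KO by -4.56 ± 0.52 for Ms4a4c and by -3.28 ± 0.66 for Ms4a6b. Both were called, as were 0.977% of all genes in either direction and 0.581% lower. Leaving out 1 library moved the number of called genes from 3 to 1799, and Ms4a6b kept its call in 3 of 17 such repeats. The members were chosen with these values known, so nothing is read from their calls. Ms4a4b differed by -2.24 ± 0.68, Ms4a6c by -1.11 ± 0.46 and Ms4a6d by -0.30 ± 0.80, none of them called. Adding the deletion to Tet2 het gave -1.65 ± 0.76 for Ms4a4b, -2.28 ± 0.53 for Ms4a4c, -0.86 ± 0.69 for Ms4a6b, -0.82 ± 0.52 for Ms4a6c and -1.82 ± 0.93 for Ms4a6d. No gene at all (0%) was called by edgeR in that comparison, which has 2 libraries in 1 arm, while 2652 had an unadjusted p under 0.05 and DESeq2 called 599.

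URE het Tet2 KO against Tet2 KO sets AML against Normal libraries, while URE het against WT sets Normal against Normal. The interaction is the first difference minus the second, so disease and genotype cannot be told apart in it. This interaction was -4.37 ± 0.66 for Ms4a4c, -2.63 ± 0.87 for Ms4a6b, -1.84 ± 0.92 for Ms4a4b, -1.35 ± 0.64 for Ms4a6c and -0.79 ± 1.13 for Ms4a6d (log2). All 5 had the same sign, but they come from the same libraries and were chosen with these results known. edgeR called 0 of 19951 genes (0%) for the interaction, with 1618 at an unadjusted p under 0.05, and DESeq2 called 151. Without URE het Tet2 KO replicate 1 edgeR called 279.

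**Figure D2:**
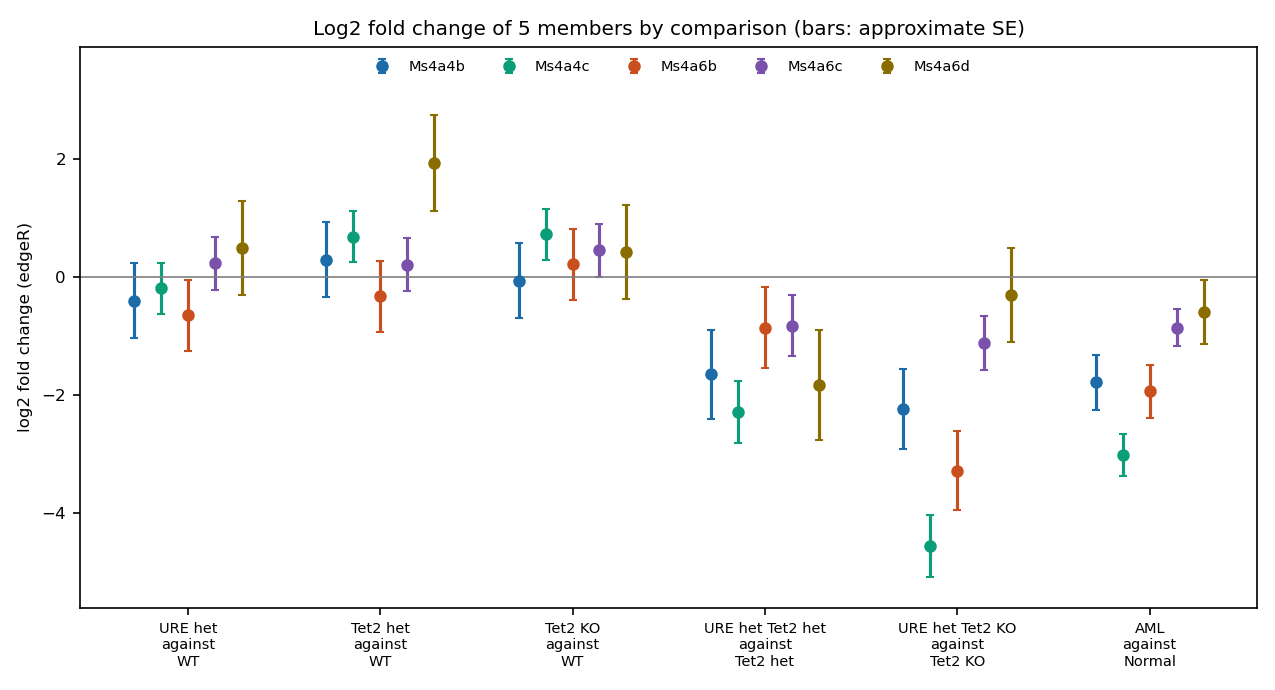
Log2 fold change (y axis) of 5 members in 6 comparisons (x axis), with bars for the approximate standard error from edgeR; Ms4a7 is left out because of its few counts. The 3 single-mutant comparisons lie between -0.65 and 0.73 except for Ms4a6d in Tet2 het (1.94), and the 3 comparisons with compound genotypes are all below 0, nearest to it Ms4a6d at -0.30 and -0.59 and lowest Ms4a4c in URE het Tet2 KO against Tet2 KO at -4.56.

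Summed over the 6 members, the Normal libraries held 37.3 to 73.9 CPM. The AML sums were 8.10 and 42.6 CPM in URE het Tet2 het and 12.98, 21.9 and 19.2 CPM in URE het Tet2 KO, in replicate order, so that only URE het Tet2 het replicate 2 came into the Normal range. The shares of the members moved in some AML libraries and overlapped between the states. Ms4a6c made up 39.5% to 60.2% of the summed CPM in Normal libraries and 52.8% to 87.3% in AML libraries. Its AML shares of 52.8% and 53.2% were inside the Normal range, and that of 60.6% was just above it. Ms4a4c made up 5.15% to 14.4% in Normal and 0.472% to 10.04% in AML libraries. Of the 100-base windows of Ms4a6c, 45.8% also occur in BE692007 or Prdm11. Its counts, and with them all shares, are therefore uncertain. In URE het Tet2 KO replicate 2 the share of Ms4a6c was 87.3% and that of Ms4a6b 3.14%. In URE het Tet2 KO replicate 1 Ms4a6d, at most 15.6% of the sum in a Normal library, made up 22.2%.

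The 4 pairs of members most alike over all libraries were less alike within the Normal genotypes. Over the 17 libraries Pearson's r of log2 CPM was 0.82 for Ms4a4c and Ms4a6b, 0.78 for Ms4a4b and Ms4a6b, 0.77 for Ms4a4b and Ms4a4c and 0.76 for Ms4a4b and Ms4a6c. Over the 12 Normal libraries with each genotype mean subtracted, the same pairs gave 0.05, 0.03, 0.01 and 0.31. The opposite order was seen for Ms4a7, which is near 0 counts, with Ms4a4c (0.44 over all and 0.73 within) and with Ms4a6d (0.26 and 0.44). These values describe libraries that share their genotype and depth and carry no test.

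Spi1, whose element was deleted, was at 45.3 to 137 CPM in the Normal libraries. In URE het Tet2 het it was at 21.6 and 34.9 CPM and in URE het Tet2 KO at 98.6, 7.83 and 12.2 CPM, in replicate order. URE het Tet2 KO replicate 1 thus had Spi1 inside the Normal range while its Ms4a4c was 0.254 CPM, its Ms4a4b 0.211 CPM and its Ms4a6b 2.79 CPM, each below every Normal library. In URE het Tet2 het replicate 2 Spi1 was below every Normal library, as was Ms4a4c (1.55 CPM), while Ms4a6b (12.2 CPM) and Ms4a6c (22.6 CPM) were not. Within the 12 Normal libraries, genotype means subtracted, the correlation with Spi1 was 0.34 for Ms4a4c, -0.50 for Ms4a4b, -0.22 for Ms4a6b and -0.51 for Ms4a6c. Spi1 in these libraries also differed between the ranges of title numbers, given below. That difference was not subtracted, so the correlations carry it too.

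**Figure D3:**
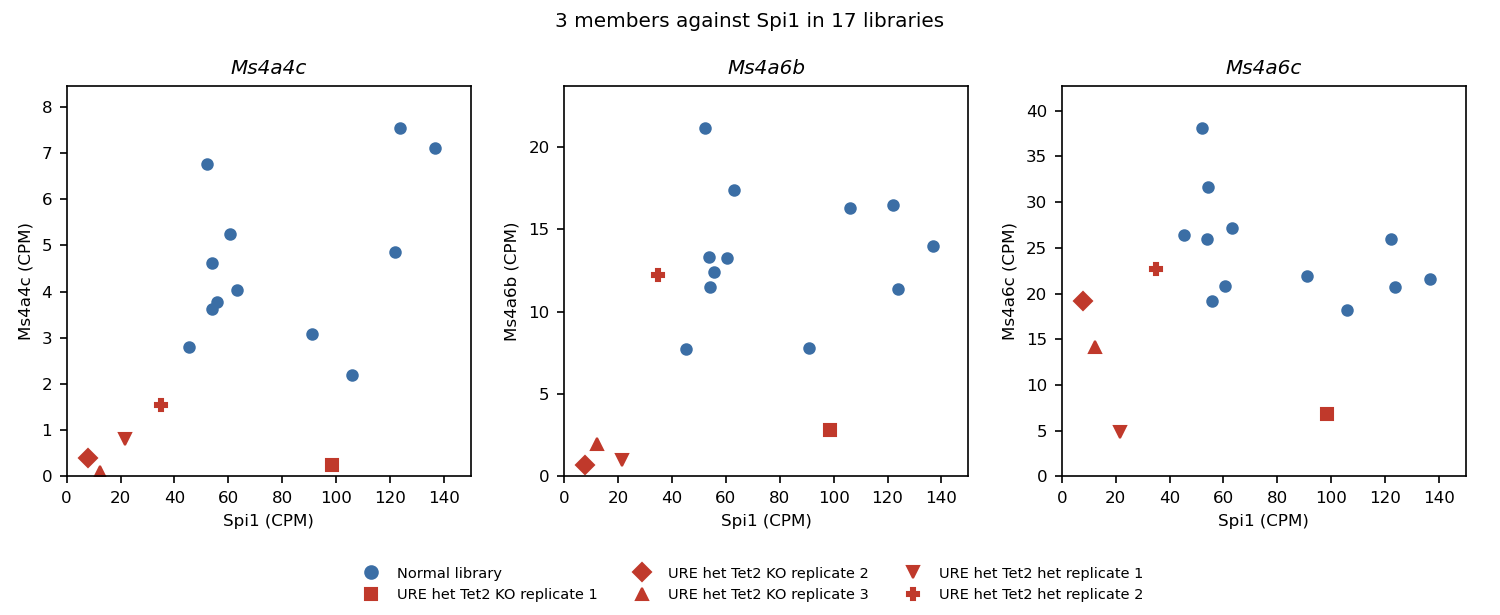
CPM of Ms4a4c, Ms4a6b and Ms4a6c (y axes, linear) against CPM of Spi1 (x axis) in 17 libraries; blue circles are Normal libraries and each red symbol is 1 AML library. The red square, URE het Tet2 KO replicate 1, has Spi1 at 98.6 CPM and Ms4a4c at 0.254 CPM.

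Titles number the libraries from 1 to 17, and Spi1 differed between the ranges of these numbers. In the Normal libraries numbered 1 to 7 it was at 90.9 to 137 CPM and in those numbered 8 to 17 at 45.3 to 63.1 CPM (log2 -1.07 ± 0.09, edgeR adjusted p = 4.44e-06). The labels do not say what the numbers stand for. URE het Tet2 KO replicate 1 is numbered in the first range, and its Spi1 lay inside the range of the Normal libraries there. The members were not chosen on these numbers and were tested: with 36.4% of 18282 genes called, 0 of the 5 members with enough counts passed. Their log2 differences, 8 to 17 minus 1 to 7, were 0.42 ± 0.23 for Ms4a4b (edgeR adjusted p = 0.168), -0.23 ± 0.22 for Ms4a4c (0.461), 0.16 ± 0.17 for Ms4a6b (0.504), 0.25 ± 0.16 for Ms4a6c (0.248) and 0.21 ± 0.44 for Ms4a6d (0.746). BE692007, which overlaps Ms4a6c, was higher in the later numbers by 1.18 ± 0.15 (edgeR adjusted p = 5.1e-05). For Ms4a4c, the AML and Normal libraries held 0.254 to 0.813 against 2.19 to 7.54 CPM in numbers 1 to 7. In numbers 8 to 17 they held 0.0907 to 1.55 against 2.80 to 6.77 CPM. The lack of overlap inside each range follows from that over all libraries, so it is no separate result. Over numbers 8 to 17 alone, AML against Normal gave -2.76 for Ms4a4c, -1.36 for Ms4a4b, -1.73 for Ms4a6b and -0.40 for Ms4a6c.

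Of the 13 other Ms4a genes, 7 did not pass the filter (at most 5 counts in any library, and 3 at 0 counts in all) and 6 were tested. Ms4a2, the IgE receptor beta chain, fell in AML from 19.1 ± 7.73 CPM (SD, n = 12) to 3.26 ± 3.71 CPM (n = 5), a log2 difference of -2.56 ± 0.51 (edgeR adjusted p = 0.00685), with all 5 AML libraries below all Normal ones. Ms4a1, the B cell antigen CD20, fell by 5.47 ± 1.40 on the log2 scale, a fitted value that depends on the prior count (edgeR adjusted p = 0.0260) from at most 59 counts in a Normal library to 0 or 1 count in each AML library. It was at 0 counts in 2 of the 12 Normal libraries and at 1 count in 2 more, so that all 5 AML libraries lay within the Normal range. That call ended in 5 of 22 alternatives, each of which left out 1 library (URE het replicate 1, either URE het Tet2 het library, URE het Tet2 KO replicate 2 or its replicate 3). Ms4a3, a gene of granulocyte and monocyte progenitors, was well above the detection limit and did not pass: 131 ± 63.2 CPM in Normal and 89.8 ± 71.8 CPM in AML (-0.54 ± 0.53, edgeR adjusted p = 0.576). Ms4a4a (-0.76 ± 0.95, edgeR adjusted p = 0.667), Ms4a4d (0.80 ± 0.55, 0.388) and Ms4a8a (-0.37 ± 0.93, 0.850), all near the level of 3 counts, did not pass. Nor did the more distant relatives Tmem176b (-0.55, edgeR adjusted p = 0.299) and Tmem176a (-0.03, 0.971) on chromosome 6.

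**Figure D4:**
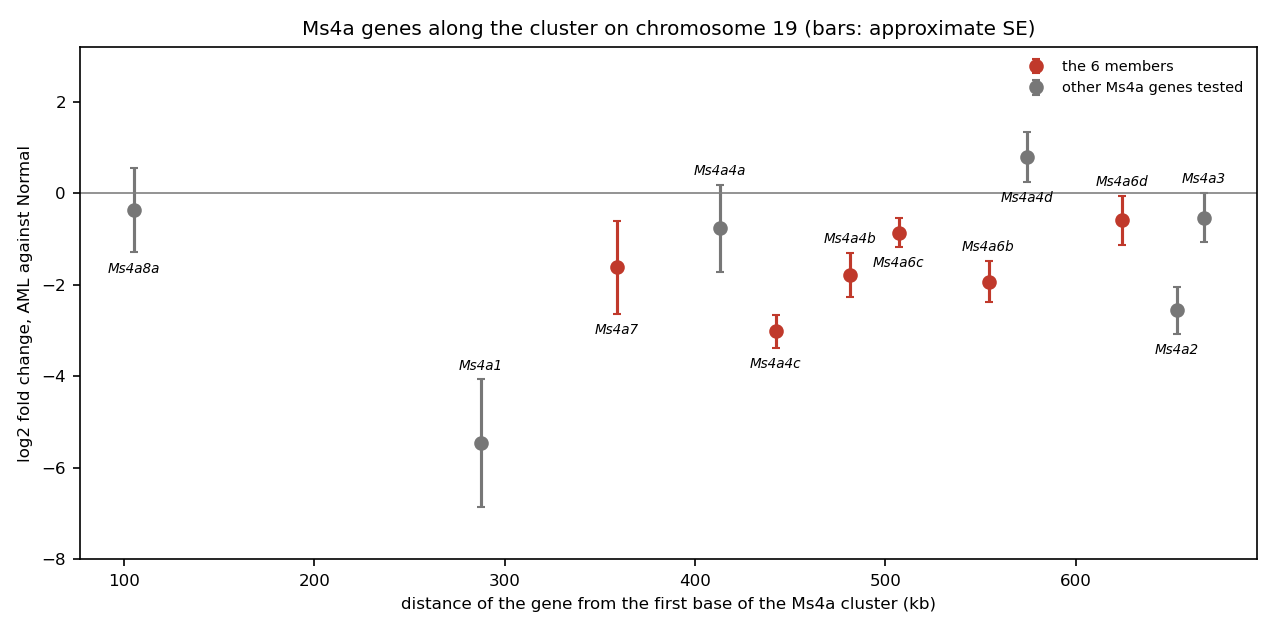
Log2 fold change in AML against Normal (y axis, bars for the approximate standard error) of the 12 Ms4a genes that passed the filter, by the distance of each gene from the first base of the cluster in kb (x axis); red points are the 6 members and grey points the others. Ms4a4c (-3.02) and Ms4a2 (-2.56) stand lower than Ms4a4d (0.80) and Ms4a3 (-0.54), which lie among and beyond them.

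Along the cluster, Ms4a genes called lower were interspersed with others that were not called. Among the latter, Ms4a7, Ms4a4a, Ms4a4d and Ms4a8a were near the level of 3 counts, and Ms4a6c was called under some alternatives. Little is therefore read from the places of the genes not called. The flanks held 1 gene called lower, and too few genes were tested there to set beside the 4.02% called lower over all genes. Within 500 kb of the members lie 28 protein-coding genes whose symbols do not start with Ms4a. Of these, 13 passed the filter, 0 were higher and 1 was lower in AML. That gene, Slc15a3, a peptide and histidine transporter of the endosome, was picked out after its values were seen (-3.35 ± 1.02, edgeR adjusted p = 0.0473; not called in 16 of 22 alternatives). Gm8369, between Ms4a6c and Ms4a6b, was at 1.01 ± 0.328 CPM in Normal and 1.27 ± 0.873 CPM in AML (0.30 ± 0.40, edgeR adjusted p = 0.700). It shares some 50-base windows with Ms4a4b, so it may not stand outside the family. The nearest flanking genes that passed the filter were Oosp1 (-1.56 ± 0.66, 0.146) and Mrpl16 (-0.33 ± 0.16, 0.206) on the side of Ms4a6d and Ccdc86 (-0.49 ± 0.31, 0.337) and Ptgdr2 (0.43 ± 0.54, 0.665) beyond Ms4a7, with edgeR adjusted p-values in second place.

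Marker lists of the cells in which Ms4a genes are known were read in the same libraries. Monocyte and macrophage markers moved both ways, with 2 higher and 4 lower of 18 tested (median log2 -0.44). Ccr2, the chemokine receptor of inflammatory monocytes, was lower (-1.21 ± 0.28, edgeR adjusted p = 0.0141) and Lyz2, lysozyme, was lower (-1.55 ± 0.36, 0.0146), while F13a1, a coagulation factor subunit of monocytes, was higher (2.31 ± 0.41, 0.00361) and Vcan, versican, was higher (4.16 ± 0.69, 0.00246). The calls of Ccr2, F13a1 and Vcan ended without URE het Tet2 het replicate 1, and that of Ccr2 also within title numbers 8 to 17. The summed CPM of the 18 was 5751 to 14920 in Normal and 2655 to 9006 in AML, with no marker at 0 throughout. URE het Tet2 KO replicates 2 and 3, with 8084 and 9006 CPM, were inside the Normal range of this sum and held Ms4a4c at 0.401 and 0.0907 CPM. Such sums follow the most abundant markers, here Lyz2 at 3330 to 12050 CPM in Normal and 1291 to 4234 CPM in AML. They do not measure the content of a cell type, and this holds for the other lists as well.

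Dendritic cell markers had 0 higher and 6 lower of 16 (median -1.56), among them Cd209a, a lectin of monocyte-derived dendritic cells (-6.12 ± 0.76, edgeR adjusted p = 0.000933), and Cst3, cystatin C (-1.37 ± 0.22, 0.00196). Their sum was 299 to 629 CPM in Normal and 214 to 314 CPM in AML. The sort (Lymph-) was made against lymphoid cells. T and NK cell markers had 1 higher and 2 lower of 15 tested (median -0.70), and their sum was 77.6 to 172 CPM against 25.8 to 96.4 CPM. Cd28, a costimulatory receptor, was higher (2.86 ± 0.62, edgeR adjusted p = 0.0108) and Gzma, granzyme A, lower (-3.33 ± 0.70, 0.00881), as was Cd4 (-3.68 ± 0.86, 0.0144). Without URE het Tet2 het replicate 1 Cd28 and Cd4 were not called. Cd3e, which defines T cells, was at 0 to 0.985 CPM in Normal and at 0 in 3 of 5 AML libraries, but reached 0.149 CPM in URE het Tet2 het (replicate 2) and 2.93 CPM in URE het Tet2 KO (replicate 3). The last is above every Normal library and has Ms4a4b at 2.66 CPM. Ms4a4b was at 2.71 CPM or more in every Normal library, Cd3e at 0 in 2 of these 12. The part of any of these cell types in the values of the members was not tested.

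B cell markers had 0 higher and 8 lower of 13 (median -2.68) and the sum was 14.3 to 40.2 CPM against 2.54 to 17.5 CPM. Mast cell, basophil and eosinophil markers had 0 higher and 8 lower of 12 (median -2.94), with 157 to 536 CPM against 20.4 to 144 CPM. Fcer1a, which encodes the IgE receptor chain that pairs with Ms4a2, was among them (-4.17 ± 0.92, edgeR adjusted p = 0.0112; not called without URE het Tet2 het replicate 1). Neutrophil markers had 1 higher and 5 lower of 13 (-0.93; 27380 to 91720 against 14140 to 35870 CPM) and erythroid and megakaryocyte markers 0 and 2 of 11 (-2.03; 25.7 to 72.9 against 2.55 to 39.4 CPM). Progenitor markers had 0 and 3 of 12 (-1.01). Their sum, which follows the most abundant of them, was 2892 to 7530 CPM in Normal and 5683 to 8309 CPM in AML. Over all genes the median was 0.05, with 4.02% called lower and 6.94% higher.

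Ms4a4c is often counted among interferon-induced genes, so 24 interferon-stimulated genes were read beside it. None was higher and 1 was lower in AML, with a median log2 difference of -0.01. The lower one, Ifi203, was not called in 17 of 22 alternatives. The summed level was 580 to 956 CPM in Normal and 352 to 1111 CPM in AML. URE het Tet2 KO replicate 2 had 1111 CPM of these genes and 0.401 CPM of Ms4a4c, and URE het Tet2 KO replicate 3 had 352 and 0.0907 CPM. Of 20 matched genes listed as dependent on PU.1, 1 was higher and 4 were lower (median -0.25). Il7r, the interleukin 7 receptor chain (-2.68 ± 0.60, edgeR adjusted p = 0.0117), and Mef2c, a transcription factor of lymphoid and myeloid progenitors (-1.21 ± 0.31, 0.0218), were lower, and Fcgr2b, an inhibitory IgG receptor, was higher (0.76 ± 0.18, 0.0166; not called without URE het Tet2 het replicate 1 or URE het Tet2 KO replicate 3).

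Among 9961 genes of sufficient level, those whose log2 CPM most resembled the mean of the 6 members over the 17 libraries were Dennd5b (Pearson r = 0.949), F2r (0.949), H2-Ob (0.944), Slc9a7 (0.943) and Rnase6 (0.942). They lie on chromosomes 6, 13, 17, X and 14. Leaving out any 1 AML library changed these correlations by less than 0.1. Rnase6, a secreted ribonuclease, was at 5.91 ± 2.85 CPM in Normal and 0.467 ± 0.834 CPM in AML, and F2r, the thrombin receptor, at 19.8 ± 6.02 and 3.02 ± 4.54 CPM. Within the Normal genotypes other genes came first, among them Ctss (r = 0.870), Zfp142 (0.836), Actg1 (0.832) and Rnf115 (0.828). The mean gives equal weight to all 6 members, Ms4a7 with its few counts included, and the ranges of title numbers were not subtracted. A likeness to the other members is therefore not read from these genes. The points share genotype, depth and, for the first set, the AML libraries.

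The table also held rows whose names end in _enh, some with a member's identifier, for which no coordinates were given. There were 13 of them for the 6 members. The 4 rows of Ms4a4c held 483 counts in all, 27.1% of those in its gene row, at 0.338 to 2.20 CPM in Normal and 0.181 to 1.27 CPM in AML libraries, 2 AML libraries being below all Normal ones. The 2 rows of Ms4a4b held 344 counts, with 0.147 to 1.41 CPM in Normal and 0 to 0.382 CPM in AML libraries, 3 of them below all Normal ones. How often the _enh rows of other genes do the same was not counted, so nothing is read from the lack of overlap in either gene. The 2 rows of Ms4a6d (220 counts) and the single rows of Ms4a6c (163) and Ms4a6b (42) overlapped between the states, and the 3 rows of Ms4a7 held 3 counts.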

How the data were processed

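Polyadenylated RNA of sorted bone marrow progenitors was sequenced in 17 libraries. The authors deposited 1 table of raw read counts per feature; alignment with STAR to GRCm38 is given in the submitters' processing notes, and the counting program and its strand setting are not given in the sources used here. Of 96004 features, 47643 gene rows were used, and 47224 matched GENCODE vM21 without version. Rows with names ending in _enh held 2.63% to 5.71% of the counts and stayed out of library sizes and tests. No 2 libraries were identical.

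Genes were filtered with filterByExpr (minimum count 10, total 15), scaled by TMM and tested with edgeR 4.0.16 (limma 3.58.1, R 4.3.3) by the quasi-likelihood F test with 1 mean per genotype over all 17 libraries and Benjamini-Hochberg adjustment at 0.05. The AML against Normal contrast is the mean of the 2 compound genotypes minus that of the 4 others. CPM use TMM library sizes. Standard errors are approximate, from the log2 fold change and the root of F. Levels between genes were compared per kb of the union of exons. The code was tested on simulated data. Floors, the levels of a few counts, cover counting error only. Standard errors and SDs take in the spread between libraries.

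The members, the marker lists and the tests were chosen with earlier results of these data known. Named genes are the members, all other Ms4a genes and Tmem176a and Tmem176b that passed the filter, up to 4 nearest neighbours, up to 4 called genes with the smallest p per list (a choice of these is printed) and the 5 genes most like the members (mean log2 CPM of at least 1); 1 gene that this rule names is not reported here. The 10 lists cover progenitors, monocytes and macrophages, dendritic cells, T and NK cells, B cells, mast cells with basophils and eosinophils, neutrophils, erythroid cells with megakaryocytes, interferon-stimulated genes and PU.1-dependent genes; Emr1 was not matched. Alternatives were DESeq2 1.42.0, its size factors, no filter, the range of title numbers as a term, the libraries numbered 8 to 17 alone and each library left out.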

Additional observations from a re-analysis of the deposited data

Results flagged for a closer look

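In the 5 AML libraries, Ms4a6b in URE het Tet2 het replicate 2 stood apart at 12.2 CPM, where the nearest of the others was at 2.79 CPM. The gap was 0.818 of the whole range of the 5, above Dixon's 95% critical value of 0.71. About 1 in 20 groups is marked by chance, and 6 genes were looked at in this way; the highest library of the others reached 0.505 (Ms4a4c) and their lowest 0.160 (Ms4a4b). The genotype groups hold 3 libraries or fewer and the Normal state 12, so neither was looked at.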

How the results depend on the processing

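The 5 members other than Ms4a7 kept a lower value in AML under each of the 22 alternatives, from which nothing is read, since they were chosen on this contrast. The median over the members, Ms4a7 included, ran from -2.08 to -1.48 when 1 library was left out. Numbers of called genes moved more, and causes were not tested. For AML against Normal, 2188 genes (1385 higher, 803 lower) became 3664 with the range of title numbers as a term and 845 to 3998 with 1 library left out: 845 or 3807 on leaving out URE het Tet2 het replicate 1 or 2, and 3998, 1229 or 1291 on leaving out URE het Tet2 KO replicate 1, 2 or 3. DESeq2 called 3255 genes, split evenly between directions (1627 higher, 1628 lower). For URE het Tet2 KO against Tet2 KO, 195 became 1212 with DESeq2, 415 with the range term and 3 to 1799 with 1 library left out (3 without URE het Tet2 KO replicate 2, 1799 without replicate 1). For URE het Tet2 het against Tet2 het, 0 became 599 with DESeq2, 145 with the range term and 0 to 1219 (1219 on leaving out URE het Tet2 het replicate 2, 123 its replicate 1, 82 on leaving out URE het Tet2 KO replicate 1). The interaction went from 0 to 151 with DESeq2, to 1 without a filter, and to 0 to 279 with 1 library left out (279 without URE het Tet2 KO replicate 1, 67 or 64 on leaving out URE het Tet2 het replicate 1 or 2). URE het, Tet2 het and Tet2 KO against WT went from 0 to 7, 1 and 12 with DESeq2 and stayed at 0 with any library left out. Called genes between title numbers went from 6655 to 7127 with DESeq2 and to 4752 to 6682 with 1 library left out. Ms4a4b, Ms4a4c and Ms4a6b were called in the main analysis; DESeq2 and the range term added Ms4a6c. No paired analysis was possible because the labels give no replicate numbers shared between groups. At 3 to 14 counts, Ms4a4c in the URE het Tet2 KO libraries is limited by depth, as are all Ms4a7 values.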
